A study of Mus musculus with 12 samples.

Results

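In all, 10 genes were followed: the 3 hypoxia-inducible factor alpha subunit genes Hif3a, Hif1a and Epas1, and 7 genes that these factors are known to switch on, Vegfa, Egln3, Adm, Bnip3, Ankrd37, Car9 and Slc2a3. They were taken by symbol from a table of raw read counts for 35275 genes, and all 10 are among the 18344 genes tested. The libraries were made from poly(A) RNA of mouse optic nerve in a model of neurofibromatosis type 1, and every group carried that label. There were 3 libraries from mice given carboplatin, a platinum drug that cross-links DNA, 3 from mice given selumetinib, an inhibitor of the MEK kinases, and 6 from mice given phosphate-buffered saline (PBS). The sources used here give no allele, dose, schedule, age, sex or wild-type group. Nor do they tie each library to its own animal, so a p-value speaks for the spread among these libraries, part of which may be technical. The question was whether the higher Hif3a level after carboplatin went with higher levels of the other hypoxia-inducible factor genes and of their targets.

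A hypoxia-inducible factor is a pair of proteins, an alpha subunit and its constant partner ARNT. When oxygen is plentiful, prolyl hydroxylases of the EGLN family mark HIF-1 alpha and HIF-2 alpha (the product of Epas1) for removal by the VHL ubiquitin ligase, and when oxygen is short the alpha subunits accumulate and bind hypoxia response elements, which share a core of A or G followed by CGTG. Most of this control acts on the protein, so mRNA of the alpha subunits and mRNA of their targets are separate readouts. Hif3a is the least studied of the alpha subunit genes, and some of its splice forms, such as the inhibitory IPAS, lack a transactivation domain and oppose HIF-1. In the optic nerve, astrocytes, oligodendrocytes and blood vessels all use the pathway to match glucose uptake and blood supply to oxygen.

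After carboplatin Hif3a rose 17.7-fold over PBS, while none of the 7 targets passed the test in the fit of all 12 libraries. Hif3a was the only 1 of the 10 genes that was called, against 2.09% of all genes tested that were called in either direction and 1.57% that were called higher. None of the 10 was called lower, against 0.518% of all genes. The test was the quasi-likelihood F test of edgeR on counts, and a gene is called where its p, adjusted over all genes tested by the Benjamini-Hochberg method, is under 0.05. Levels are in CPM, which puts libraries of unequal depth on 1 scale (TMM factors of edgeR), and a log2 fold change is carboplatin over PBS unless another pair is named. The median log2 fold change was 0.20 over the 10 genes and 0.04 over the 7 targets, beside −0.11 over all genes tested. These results depend on 1 control library, PBS 1, described below. Without it 2 of the 7 targets, Adm and Bnip3, were called higher, as were Hif3a and Epas1, against 6.79% of all genes. The medians were then 0.36 over the 10 genes and 0.26 over the 7 targets, beside −0.03 over all genes. DESeq2 on all 12 libraries also called Adm (DESeq2 adjusted p = 0.00270), with 1574 of 18344 genes called. On the same libraries limma voom called Hif3a, Epas1, Adm, Bnip3 and Slc2a3 higher and Egln3 lower, with 5470 of 18344 genes called. In bulk tissue a change in the number of cells of a type and a change in the RNA per cell cannot be told apart.

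Library totals ran from 21793052 to 33375754 counts. PBS 1 stood apart: 12 skeletal muscle marker genes made up 0.0136% to 0.258% of counts in carboplatin libraries, 0.000762% to 0.000957% in selumetinib libraries, 0.000583% to 0.0427% in PBS 2 to 6 and 6.60% in PBS 1. The labels call the samples nerve cells, and 10 mature oligodendrocyte markers, all detected in every group, took 5.02% to 8.32% of counts in carboplatin libraries, 2.18% to 6.95% in selumetinib libraries and 2.06% to 7.10% in PBS libraries. The low ends belong to selumetinib 1, selumetinib 2 and PBS 1. Among the carboplatin libraries, 10 photoreceptor markers took 0.0942% and 0.168% of counts in carboplatin 1 and 3, and 8 pigment epithelium markers took 0.132% in carboplatin 2, 0.0186% in carboplatin 3 and 0.00806% in carboplatin 1, against at most 0.0169% and 0.00800% for these lists in PBS libraries. Counts of 4 Y-linked genes were 0 in carboplatin 1, in all 3 selumetinib libraries and in PBS 1. The other libraries had 3377 to 5967 such counts. Selumetinib over PBS without PBS 1 therefore compared libraries that all lacked these counts with libraries that all had them. A difference in sex, if that is what these counts show, cannot be told apart from treatment there. With all libraries, only PBS 1 among the PBS libraries and only carboplatin 1 among the carboplatin libraries lacked these counts. Comparisons of selumetinib with PBS and with carboplatin were therefore largely mixed with this difference in the fit of all libraries too. Nf1 itself ranged from 29.1 to 78.6 CPM over the 12 libraries. Values without PBS 1 are given beside many of the comparisons of the 10 genes and of the gene lists with PBS. Where none is given, the value includes PBS 1 and may depend on it.

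Hif3a lies on the minus strand of chromosome 7 at chr7:17031507-17062427 in build GRCm38 (4 annotated transcripts) and has no overlapping gene in the annotation. It had 64.3, 37.0 and 60.7 CPM in carboplatin 1, 2 and 3 and 3.08, 3.41 and 3.64 CPM in selumetinib 1, 2 and 3, while the PBS libraries had a lowest value of 0.279, a median of 2.92 and a highest value of 5.85 CPM. Every carboplatin library lay above every selumetinib and every PBS library, whereas the selumetinib libraries lay inside the PBS range. The lowest PBS value is that of PBS 1, and the lowest carboplatin value is that of carboplatin 2.

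The mean Hif3a level was 54.0 ± 14.8 CPM in carboplatin libraries (SD, n = 3), 3.37 ± 0.280 CPM in selumetinib libraries (SD, n = 3) and 3.03 ± 1.91 CPM in PBS libraries (SD, n = 6). The log2 fold change of carboplatin over PBS was 4.15 ± 0.58 (SE; edgeR adjusted p = 0.00536), with a 95% interval of 2.88 to 5.42, or 7.34-fold to 42.9-fold. Without PBS 1 it was 3.89 ± 0.32 (edgeR adjusted p = 0.000152). The call held when any single library was left out, with log2 fold changes of 3.89 to 4.44 and adjusted p of 0.000152 to 0.0330. It was lost with PBS 1 to 3 as the only controls (4.69, edgeR adjusted p = 0.104) and when carboplatin 1 and 3, the libraries with photoreceptor markers, were both left out, which leaves carboplatin 2 alone (3.61, edgeR adjusted p = 0.195).

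Over selumetinib, carboplatin gave a Hif3a log2 fold change of 4.00 ± 0.76 (SE; edgeR adjusted p = 0.0137). This call was lost without carboplatin 1 (adjusted p = 0.0513), carboplatin 3 (0.0546), selumetinib 1 (0.0727) or selumetinib 2 (0.0715) in edgeR, although the log2 fold change stayed between 3.86 and 4.22 over all single libraries left out. Selumetinib over PBS gave 0.15 ± 0.59 (SE; edgeR adjusted p = 0.887), with a 95% interval of −1.14 to 1.44, and −0.09 ± 0.32 (SE; edgeR adjusted p = 0.859) without PBS 1. The 3 comparisons share libraries, so each is given by its own values.

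Per kilobase of annotated exon, a scale on which genes can be set beside each other, Hif3a was 6th of the 10 genes in carboplatin libraries, with a mean of 8.05 ± 2.21 CPM per kb, and 10th in selumetinib libraries (0.503 ± 0.0417 CPM per kb) and in PBS libraries (0.452 ± 0.285 CPM per kb; all SD). On the same scale Epas1 was 1st in every group, at means of 48.6 CPM per kb in carboplatin, 31.8 CPM per kb in selumetinib and 38.6 CPM per kb in PBS libraries, and Hif1a ran from 14.4 to 15.3 CPM per kb in carboplatin, 14.3 to 18.9 in selumetinib and 11.4 to 14.5 CPM per kb in PBS libraries. Hif3a after carboplatin was therefore below the levels of both other alpha subunit genes on this scale.

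**Figure D1:**
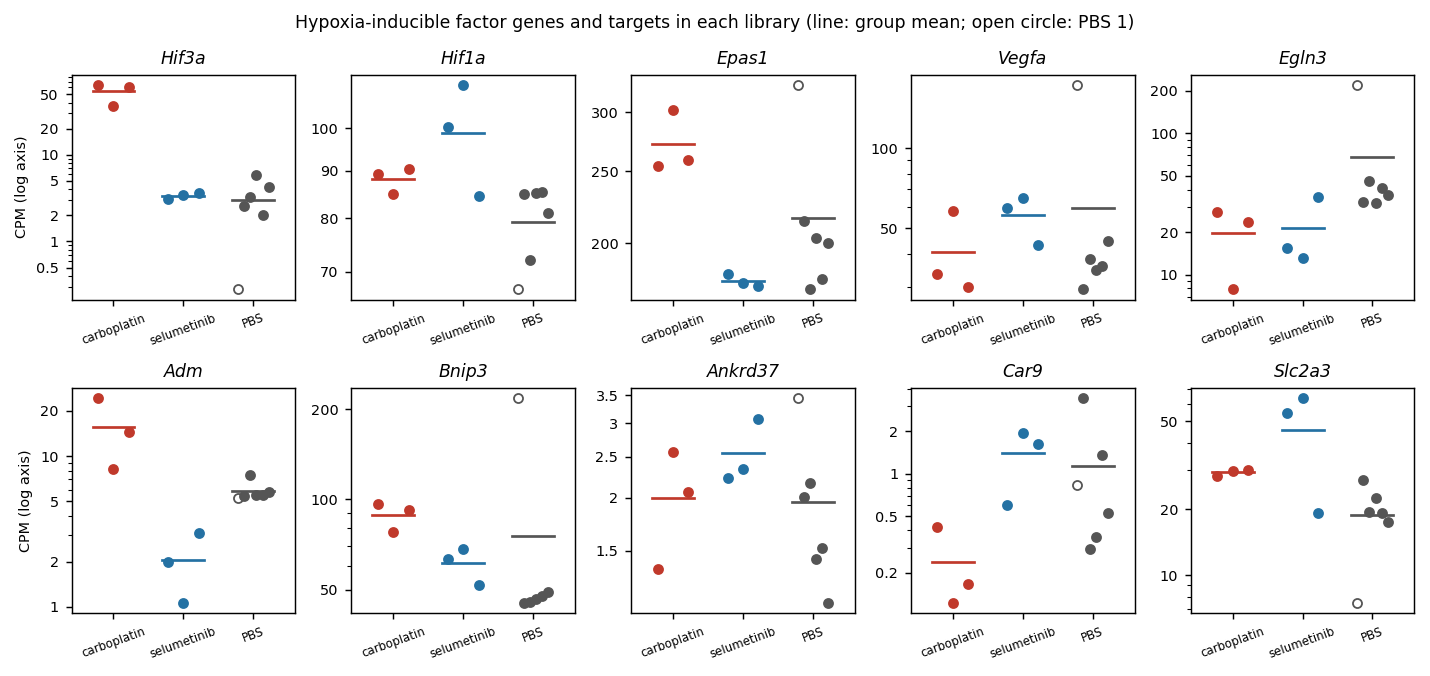
CPM of each of the 10 genes in every library, on log axes that differ between panels, with carboplatin (red), selumetinib (blue) and PBS (grey) libraries and a line at each group mean; PBS 1 is the open circle. Hif3a at 37.0 to 64.3 CPM in carboplatin libraries lies above the other 9 libraries, and PBS 1 is the highest of all 12 libraries for Epas1, Vegfa, Egln3, Bnip3 and Ankrd37.

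Hif1a, the widely expressed alpha subunit gene, lies at chr12:73901375-73947530 on the plus strand and overlaps Gm15283 on the opposite strand, so its count is uncertain where the counting did not use strand. It had 89.3, 85.0 and 90.4 CPM in carboplatin libraries, 100.5, 111 and 84.5 CPM in selumetinib libraries, and 67.0 to 85.3 CPM with a median of 83.0 in PBS libraries. The carboplatin and PBS ranges overlapped at their ends, and selumetinib 1 and 2 were the highest of all libraries. The log2 fold change of carboplatin over PBS was 0.16 ± 0.12 (SE; edgeR adjusted p = 0.564), with a 95% interval of −0.11 to 0.42, and that of selumetinib over PBS was 0.32 ± 0.12 (SE; adjusted p = 0.153). Without PBS 1 these were 0.09 ± 0.10 (SE; edgeR adjusted p = 0.591) and 0.27 ± 0.10 (SE; edgeR adjusted p = 0.108). With libraries left out one at a time, selumetinib over PBS was called only without selumetinib 3 (0.45, edgeR adjusted p = 0.0340).

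Epas1, which encodes HIF-2 alpha and is typical of endothelial cells, lies at chr17:86753700-86833410 on the plus strand. It had 254, 302 and 259 CPM in carboplatin libraries, 182, 177 and 175 CPM in selumetinib libraries, and a lowest value of 173, a median of 202 and a highest value of 326 CPM in PBS libraries. The highest PBS value was that of PBS 1; PBS 2 to 6 reached 214 CPM and lay below all carboplatin libraries. Carboplatin over PBS gave a log2 fold change of 0.33 ± 0.19 (SE; edgeR adjusted p = 0.420) with all libraries and 0.47 ± 0.10 (SE; edgeR adjusted p = 0.0189) without PBS 1. The summed share of 10 endothelial markers was 0.0259% to 0.0350% of counts in carboplatin libraries, 0.0138% to 0.0262% in selumetinib libraries, 0.0222% to 0.0287% in PBS 2 to 6 and 0.0393% in PBS 1, with all 10 detected in every group. In the fit without PBS 1 that called Epas1, 3 of these 10 markers were also called higher after carboplatin over PBS and none lower. Of all genes, 6.79% were called higher and 3.93% lower there. The median log2 fold change of the markers was 0.33, beside −0.03 over all genes. With all libraries none of the markers was called, against 2.09% of all genes, and their median was −0.06, beside −0.11. The part of endothelial RNA in the Epas1 values was not tested.

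Adm and Bnip3 are the targets with the largest positive log2 fold changes of carboplatin over PBS 2 to 6, and their promoters are shown with those of Hif3a and of Ankrd37, a target whose level was close to that of PBS. Sequences are from RefSeq on build GRCm38.p6, 5′ to 3′ on the strand of the gene, with ACGTG and GCGTG on either strand in capitals (CACGT and CACGC where the match is on the other strand). Each is the stretch of 250 bases before the RefSeq start, shortened at its 3′ end where it ran into an annotated exon of the gene. In Ankrd37, GCGTG on both strands overlaps in 1 capital run. In Bnip3, ACGTG on both strands makes CACGTG.
Hif3a, chr7:17062428-17062677, minus strand: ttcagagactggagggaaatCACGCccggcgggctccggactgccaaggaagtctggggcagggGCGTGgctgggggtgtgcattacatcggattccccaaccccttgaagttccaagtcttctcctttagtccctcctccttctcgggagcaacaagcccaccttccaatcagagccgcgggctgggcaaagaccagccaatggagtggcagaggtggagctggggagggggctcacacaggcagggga
Adm, chr7:110627407-110627656, plus strand: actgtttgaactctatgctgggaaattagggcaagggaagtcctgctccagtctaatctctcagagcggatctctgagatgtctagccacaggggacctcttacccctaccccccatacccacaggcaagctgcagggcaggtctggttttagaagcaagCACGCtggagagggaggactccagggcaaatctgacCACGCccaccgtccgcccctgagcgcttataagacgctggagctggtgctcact
Bnip3, chr7:138909520-138909756, minus strand: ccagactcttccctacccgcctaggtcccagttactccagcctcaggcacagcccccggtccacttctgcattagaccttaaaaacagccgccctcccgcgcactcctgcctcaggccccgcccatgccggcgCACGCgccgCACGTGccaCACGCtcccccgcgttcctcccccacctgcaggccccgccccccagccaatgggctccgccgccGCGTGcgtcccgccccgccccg
Ankrd37, chr8:45999868-46000100, minus strand: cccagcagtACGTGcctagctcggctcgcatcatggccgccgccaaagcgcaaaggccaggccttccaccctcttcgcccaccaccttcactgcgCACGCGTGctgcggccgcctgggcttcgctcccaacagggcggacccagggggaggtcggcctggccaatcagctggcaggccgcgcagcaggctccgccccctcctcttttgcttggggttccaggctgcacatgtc

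The promoter table held 9 promoters of 8 of the 10 genes; Epas1 and Slc2a3 were not in it. In windows from 250 bases before to 50 bases after the start, 8 of the 9 had ACGTG or GCGTG on either strand, against 43.8% of the 32851 promoters in the table. Hif3a had 2 matches, 230 and 186 bases before the start, and Adm had 2, 90 and 54 bases before the start. Bnip3 had 5 and Ankrd37 had 4, a number reached or passed by 3.86% of all promoters, and the 4th match of Ankrd37 lies 6 bases before the start, in the part not printed. CACGTG, which contains ACGTG on both strands, was in the promoters of Bnip3 and Hif1a and in 7.15% of all promoters. Of both Vegfa promoters listed 1 had no match. Whether the number of matches went with the change was not tested. With PBS 1, the log2 fold change after carboplatin was 0.24 for Bnip3, 0.04 for Ankrd37, 1.42 for Adm and 4.15 for Hif3a. Without PBS 1 it was 0.91, 0.26, 1.38 and 3.89 in that order. A match is a run of letters and not a measured binding site.

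Adm encodes adrenomedullin, a vasodilator peptide that hypoxia induces in many cell types, and lies at chr7:110627661-110629820 on the plus strand, where it overlaps Gm28863 on the opposite strand. It had 24.2, 8.20 and 14.5 CPM in carboplatin libraries, 1.98, 1.07 and 3.08 CPM in selumetinib libraries, and 5.26 to 7.51 CPM with a median of 5.51 in PBS libraries. The groups did not overlap: carboplatin libraries were highest, PBS libraries were between and selumetinib libraries were lowest. As for Hif3a, carboplatin 2 had the lowest of the 3 carboplatin values.

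Against PBS, Adm in carboplatin libraries had a log2 fold change of 1.42 ± 0.34 (SE; edgeR adjusted p = 0.0611), which missed the threshold. Leaving out PBS 1 (adjusted p = 0.0330), carboplatin 2 (0.0409), selumetinib 2 (0.0463) or selumetinib 3 (0.0377) brought it under the threshold in edgeR, and leaving out carboplatin 1 gave 0.96 with an adjusted p of 0.305. Selumetinib over PBS gave −1.51 ± 0.39 (SE; edgeR adjusted p = 0.0884), which passed only without selumetinib 3 among the libraries left out one at a time (−1.91, adjusted p = 0.0118) and was −1.54 (edgeR adjusted p = 0.0600) without PBS 1. Carboplatin over selumetinib gave 2.94 ± 0.44 (SE; edgeR adjusted p = 0.00708), a call kept without any single library, at log2 fold changes of 2.47 to 3.34. It was lost without PBS 1, selumetinib 1 and selumetinib 2 together (2.33, edgeR adjusted p = 0.0576) and with carboplatin 2 as the only carboplatin library (2.02, edgeR adjusted p = 0.163).

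Bnip3, at chr7:138890836-138909519 on the minus strand, encodes a mitochondrial protein that drives mitophagy in hypoxia. It had 96.9, 78.1 and 92.1 CPM in carboplatin libraries and 63.3, 68.1 and 51.9 CPM in selumetinib libraries, while the PBS libraries had a lowest value of 45.2, a median of 47.1 and a highest value of 218 CPM. PBS 1 was the highest of all libraries and PBS 2 to 6 kept within 45.2 to 49.3 CPM, below all libraries of both treatments. The log2 fold change of carboplatin over PBS was 0.24 ± 0.50 (SE; edgeR adjusted p = 0.845) with PBS 1 and 0.91 ± 0.10 (SE; edgeR adjusted p = 0.000917) without it. Selumetinib over PBS gave −0.30 ± 0.52 (SE; adjusted p = 0.726) with PBS 1 and 0.38 ± 0.11 (SE; edgeR adjusted p = 0.0606) without it.

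Vegfa, the vascular growth factor gene at chr17:46016993-46032369 on the minus strand, had 33.8, 57.9 and 30.1 CPM in carboplatin libraries, 59.8, 65.2 and 43.3 CPM in selumetinib libraries, and 29.4 to 173 CPM with a median of 37.1 in PBS libraries. PBS 1 was again the highest, and the carboplatin libraries overlapped PBS 2 to 6, whose highest value was 44.9 CPM. The log2 fold change of carboplatin over PBS was −0.55 ± 0.56 (SE; edgeR adjusted p = 0.664), and without PBS 1 its sign was the opposite, at 0.13 ± 0.22 (SE; edgeR adjusted p = 0.735).

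Egln3 encodes a prolyl hydroxylase of the oxygen-sensing family that is itself strongly induced by hypoxia, and lies at chr12:54178981-54203860 on the minus strand. It had 27.6, 7.87 and 23.7 CPM in carboplatin libraries, 15.4, 13.2 and 35.8 CPM in selumetinib libraries, and 32.0 to 220.5 CPM with a median of 39.1 in PBS libraries. All carboplatin libraries lay below all PBS libraries, in the opposite order to Hif3a and Adm, and selumetinib 3 was inside the range of PBS 2 to 6. The log2 fold change of carboplatin over PBS was −1.79 ± 0.76 (SE; edgeR adjusted p = 0.267) with PBS 1 and −0.95 ± 0.42 (SE; edgeR adjusted p = 0.161) without it, so neither fit called it.

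Slc2a3, the gene of the glucose transporter GLUT3, lies at chr6:122727809-122801640 on the minus strand. It had 28.4, 29.7 and 30.2 CPM in carboplatin libraries, 54.5, 63.8 and 19.2 CPM in selumetinib libraries, and 7.50 to 27.1 CPM with a median of 19.3 in PBS libraries. The carboplatin libraries lay close together just above the PBS range, and selumetinib 1 and 2 were the highest of all while selumetinib 3 was inside the PBS range. Carboplatin over PBS gave a log2 fold change of 0.64 ± 0.38 (SE; edgeR adjusted p = 0.436) with PBS 1 and 0.46 ± 0.30 (SE; edgeR adjusted p = 0.346) without it. Selumetinib over PBS gave 1.28 ± 0.38 (SE; edgeR adjusted p = 0.1002) with PBS 1 and 1.12 ± 0.30 (SE; edgeR adjusted p = 0.0601) without it. It was −0.15 without PBS 1, selumetinib 1 and selumetinib 2, which leaves selumetinib 3 alone. Among the libraries left out one at a time, it was called only without selumetinib 3 (1.67, edgeR adjusted p = 0.00834). Neuron markers, which include none of the 10 genes, took 0.0258% to 0.0379% of counts in carboplatin libraries, 0.0349% to 0.233% in selumetinib libraries and 0.00638% to 0.0540% in PBS libraries. The part of these in the Slc2a3 values was not tested.

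Ankrd37, an ankyrin-repeat gene known as a direct HIF-1 target, and Car9, which encodes a cell-surface carbonic anhydrase widely used as a hypoxia marker, had the lowest levels per kilobase of the 7 targets in carboplatin and in PBS libraries. Ankrd37 (chr8:45996902-46005707, minus strand, overlapping Ufsp2 and Lrp2bp on the opposite strand) had 1.36, 2.57 and 2.07 CPM in carboplatin libraries, 2.23, 2.34 and 3.08 CPM in selumetinib libraries, and 1.13 to 3.45 CPM with a median of 1.77 in PBS libraries. These ranges overlapped, and the log2 fold change of carboplatin over PBS was 0.04 ± 0.37 (SE; edgeR adjusted p = 0.974), with a 95% interval of −0.77 to 0.84, and 0.26 ± 0.30 (SE; edgeR adjusted p = 0.613) without PBS 1. Car9 (chr4:43506966-43513729, plus strand, overlapping Gm12454 on the opposite strand) had 0.423, 0.122 and 0.167 CPM in carboplatin libraries, 0.601, 1.95 and 1.63 CPM in selumetinib libraries, and 0.295 to 3.43 CPM with a median of 0.685 in PBS libraries. Carboplatin libraries were at the low end but overlapped the PBS range, and the log2 fold change was −2.21 ± 0.89 (SE; edgeR adjusted p = 0.245) with PBS 1 and −2.30 ± 0.93 (SE; edgeR adjusted p = 0.135) without it, on counts of 3 to 82 per library.

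**Figure D2:**
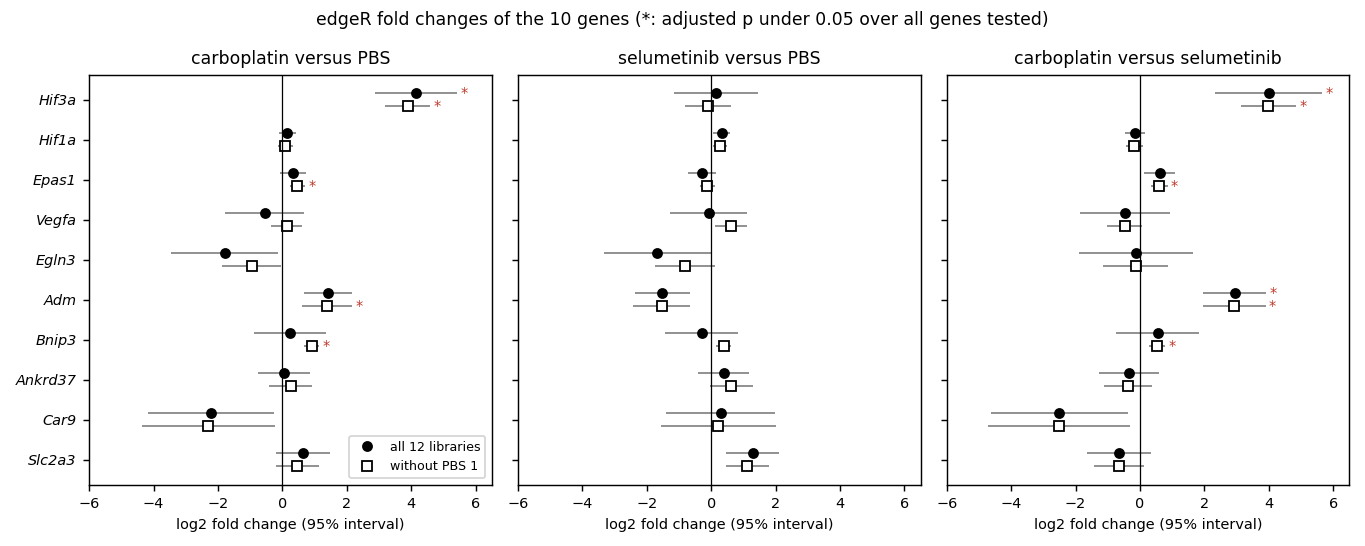
Log2 fold changes of the 10 genes in the 3 comparisons from edgeR, with 95% intervals, from all 12 libraries (filled circles) and without PBS 1 (open squares); a star marks an adjusted p under 0.05 over all genes tested. With all libraries Hif3a passes for carboplatin over PBS (4.15), and Hif3a (4.00) and Adm (2.94) pass for carboplatin over selumetinib.

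Groups did not overlap for 4 of the 10 genes between carboplatin and PBS, with Hif3a, Adm and Slc2a3 above and Egln3 below, against 12.2% of all genes tested. Without PBS 1 it was 6 of 10, as Epas1 and Bnip3 then also lay above, against 25.2% of all genes. Between selumetinib and PBS 1 of 10 was apart, Adm, which lay below, against 5.93% of all genes. Without PBS 1 it was 3 of 10, as Bnip3 and Ankrd37 then lay above, against 9.97% of all genes. Between carboplatin and selumetinib 5 of 10 were apart, with Epas1, Hif3a, Adm and Bnip3 above and Car9 below, against 41.7% of all genes. Selumetinib over PBS called none of the 10 in edgeR, where 0% of all genes tested were called (4410 genes had an unadjusted p under 0.05, 2401 were called by DESeq2 and 10165 by limma voom). Of the 10 genes, 4 had an unadjusted p under 0.05 there, 2 were called by DESeq2 (Adm and Slc2a3) and 7 by limma voom.

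Carboplatin over selumetinib called 2 of the 10 genes, both higher, against 14.0% of all genes called in either direction, 5.65% called higher and 8.35% called lower. The 7 targets had a median log2 fold change of −0.35 there, beside −0.01 over all genes tested. Without PBS 1, carboplatin over PBS called 4 of the 10 genes, Hif3a, Epas1, Adm and Bnip3, all higher, against 10.7% of all genes called and 6.79% called higher. In the same fit carboplatin over selumetinib called the same 4 genes, all higher, against 33.0% of all genes called, 14.9% called higher and 18.1% called lower. Vegfa, Egln3, Ankrd37, Car9 and Slc2a3 were called in neither comparison with or without PBS 1.

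PBS 1 had the highest level of all 12 libraries for Epas1, Vegfa, Egln3, Bnip3 and Ankrd37, and the lowest for Hif3a, Hif1a and Slc2a3. It also had the muscle marker share of 6.60% given above. The carboplatin libraries with 0.258% and 0.202% muscle markers, carboplatin 1 and 2, had 27.6 and 7.87 CPM of Egln3 and 96.9 and 78.1 CPM of Bnip3, and carboplatin 3 with 0.0136% had 23.7 and 92.1 CPM. The part of muscle RNA in the PBS 1 values was not tested.

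**Figure D3:**
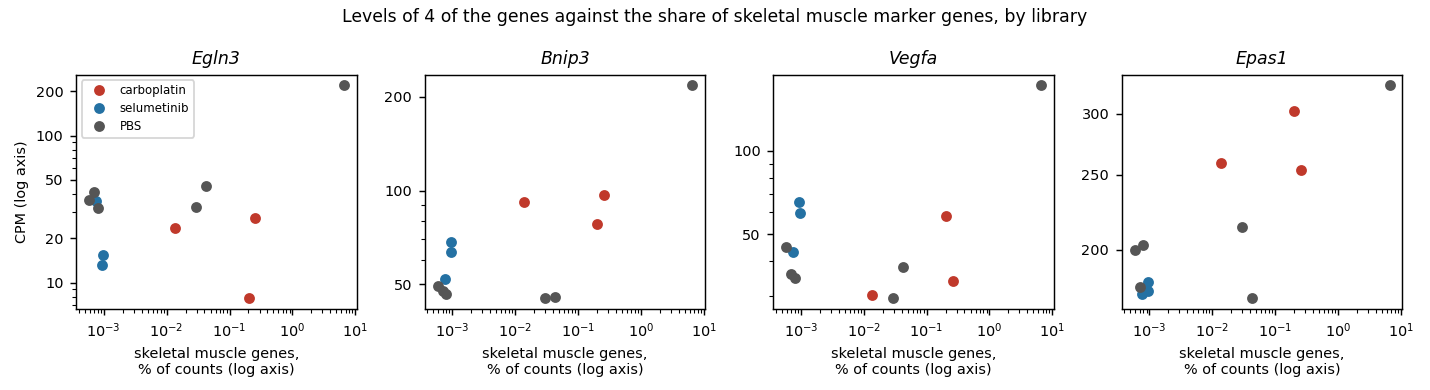
CPM of Egln3, Bnip3, Vegfa and Epas1 in each library against the share of counts from 12 skeletal muscle marker genes, both on log axes, for carboplatin (red), selumetinib (blue) and PBS (grey) libraries. The point at the top right of each panel is PBS 1, with a muscle share of 6.60%; the other PBS libraries are at or below 0.0427%.

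Further genes of the pathway were read from lists written from general knowledge. Of 16 genes for HIF partners and oxygen sensing, none was called after carboplatin against PBS with all libraries. In that fit 2.09% of all genes were called. The median log2 fold change was 0.00 with all libraries, beside −0.11 over all genes. It was 0.15 without PBS 1, beside −0.03 over all genes. The smallest p belonged to Os9 (0.41 ± 0.15), Egln2 (0.48 ± 0.21) and Ep300 (0.25 ± 0.13; all SE), with edgeR adjusted p of 0.189, 0.292 and 0.348. Arnt, the shared partner subunit, had 41.8, 38.2 and 43.5 CPM in carboplatin libraries, 31.2, 29.7 and 44.4 CPM in selumetinib libraries and 37.3 to 54.1 CPM with a median of 49.4 in PBS libraries, which overlap. Without PBS 1, 1 of the 16 rose, Egln2, a prolyl hydroxylase (0.64 ± 0.12 SE; edgeR adjusted p = 0.00917), which as a share of the list is close to the 6.79% of all genes called higher in that fit.

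Of 20 glycolysis genes, which include many HIF-1 targets, none was called after carboplatin against PBS, where 2.09% of all genes were called. The median log2 fold change was −0.17 over the list, beside −0.11 over all genes. Slc2a1, the gene of the glucose transporter GLUT1 of blood vessels and glia, came closest at 1.16 ± 0.30 (SE; edgeR adjusted p = 0.0733), followed by Aldoc, an aldolase of astrocytes, at 1.61 (adjusted p = 0.0977) and Pfkfb3, an activator of glycolysis, at 0.39 (adjusted p = 0.122). Slc2a1 had 355, 379 and 342 CPM in carboplatin libraries, 96.1, 88.9 and 144 CPM in selumetinib libraries and 62.0 to 194 CPM with a median of 179 in PBS libraries. Its carboplatin libraries lay above all other libraries. Without PBS 1, 4 of the 20 rose in edgeR, Slc2a1 (0.98), Aldoc (1.38), Hk2 (0.90) and Pfkfb3 (0.32), against 6.79% of all genes called higher, with a list median of 0.16 beside −0.03 over all genes, while enzymes such as Ldha and Pgk1 did not pass. Astrocyte markers took 1.12% to 1.498% of counts in carboplatin libraries, 0.620% to 1.07% in selumetinib libraries, 1.06% to 1.46% in PBS 2 to 6 and 0.327% in PBS 1, with all 10 detected in every group. Their part in the Aldoc and Slc2a1 values was not tested.

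Among 35 further hypoxia targets, 34 were tested, and 2 rose and 1 fell after carboplatin against PBS. Of all genes tested, 1.57% were called higher and 0.518% lower. The median log2 fold change was −0.21 over the list, beside −0.11 over all genes. Ddit4, an inhibitor of mTORC1 that hypoxia, DNA damage and glucocorticoids are all known to induce, had 464, 209.9 and 374 CPM in carboplatin libraries, 31.5, 31.2 and 46.0 CPM in selumetinib libraries and 39.4 to 91.4 CPM with a median of 45.7 in PBS libraries. Its carboplatin libraries lay above all others, with a log2 fold change over PBS of 2.57 ± 0.33 (SE; edgeR adjusted p = 0.00309), a call kept without any single library. Mxi1, an antagonist of MYC, had 179, 244 and 201 CPM in carboplatin libraries, 65.4, 58.8 and 93.7 CPM in selumetinib libraries and 99.1 to 115 CPM with a median of 103 in PBS libraries. The 3 groups did not overlap, and Mxi1 rose over PBS by 0.99 ± 0.15 on the log2 scale (SE; edgeR adjusted p = 0.00995; adjusted p = 0.0506 without carboplatin 3). Wsb1, a ubiquitin ligase adaptor, had 43.4, 43.8 and 46.3 CPM in carboplatin libraries, 116, 152 and 99.0 CPM in selumetinib libraries and 55.7 to 84.9 CPM with a median of 77.4 in PBS libraries. Its groups did not overlap either, in the opposite order, and it fell relative to PBS by 0.76 on the log2 scale (edgeR adjusted p = 0.0417). That call was lost in 9 of the 12 fits that left out 1 library, with adjusted p up to 0.176, and kept without PBS 1, selumetinib 2 or selumetinib 3.

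Without PBS 1, 6 of the 34 rose after carboplatin (Higd1a, Ddit4, Mxi1, Edn1, Car12 and Kdm3a) and 2 fell (Wsb1 and P4ha1) in edgeR, against 6.79% of all genes called higher and 3.93% called lower, with a median of −0.07 beside −0.03 over all genes. Higd1a, a mitochondrial protein gene, had 73.2, 76.2 and 71.6 CPM in carboplatin libraries and 39.4 to 97.4 CPM in PBS libraries, the highest being PBS 1. Car12, a carbonic anhydrase gene, had 4.17, 60.4 and 13.0 CPM in carboplatin libraries and 0.124 to 16.5 CPM in PBS libraries, beside pigment epithelium marker shares of 0.00806%, 0.132% and 0.0186% in carboplatin 1, 2 and 3 and of at most 0.00800% in PBS libraries. The part of pigment epithelium RNA in the Car12 values was not tested. P4ha1, which encodes a collagen prolyl hydroxylase, had 42.4, 41.8 and 37.9 CPM in carboplatin libraries and 54.4 to 104 CPM in PBS libraries, so that all carboplatin libraries were below all PBS libraries.

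**Figure D4:**
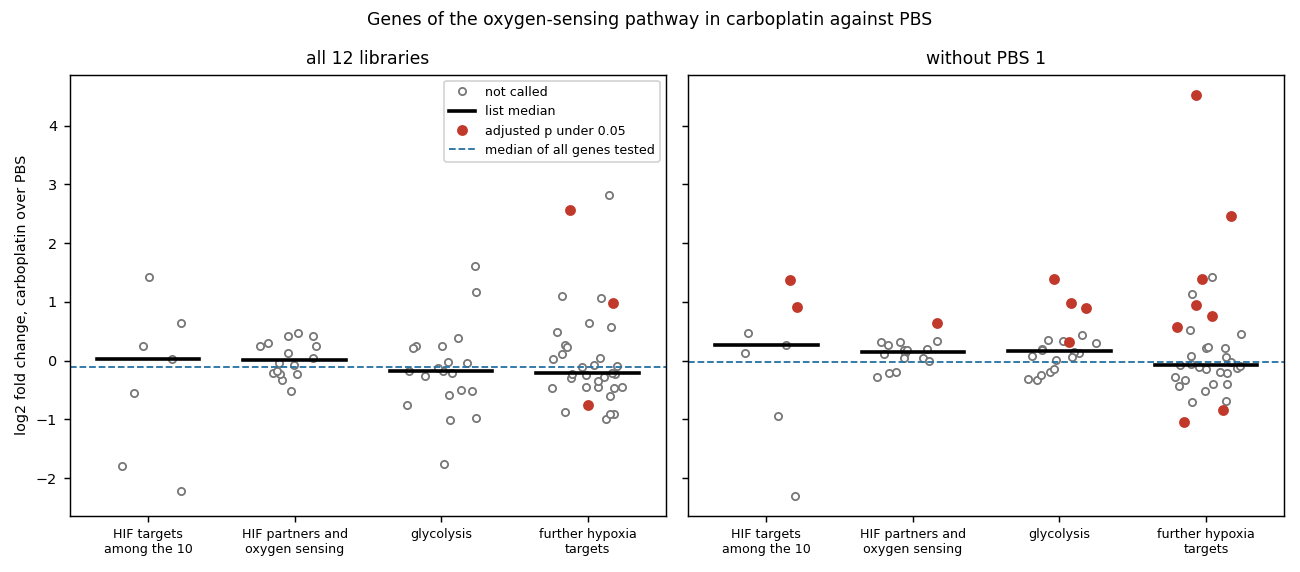
Log2 fold changes of carboplatin over PBS for the 7 targets among the 10 genes, 16 partner and oxygen-sensing genes, 20 glycolysis genes and 34 further hypoxia targets, with all 12 libraries (left) and without PBS 1 (right); called genes are red, list medians are black bars and the dashed line is the median of all genes tested. With all libraries, the called genes are Ddit4, Mxi1 and Wsb1 in the last list, and the list medians lie between −0.21 and 0.04.

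Carboplatin over selumetinib called 0 of the 16 partner and oxygen-sensing genes, 2 of 20 glycolysis genes and 7 of 34 further targets, against 14.0% of all genes. Without PBS 1 it called 7 of the 16 (6 higher), 5 of the 20 (3 higher) and 9 of the 34 (7 higher), against 33.0% of all genes called, 14.9% called higher and 18.1% called lower. The smallest p of the 16 were those of Cul2 (−0.75), Ep300 (0.36) and Egln2 (0.61), with edgeR adjusted p of 0.0744, 0.120 and 0.122. Pfkfb3 (0.67) and Slc2a1 (1.71) rose, as did Mxi1 (1.52), Ddit4 (3.27), Cxcr4 (1.01), Kdm3a (0.71) and Edn1 (1.73), while Wsb1 fell by 1.46 and Ak4 fell by 1.47, all with edgeR adjusted p under the threshold. The calls of Mxi1, Ddit4 and Wsb1 held without any single library. Those of Pfkfb3, Slc2a1, Cxcr4 and Kdm3a were lost in 4, 5, 5 and 5 of the 12 fits, each without a carboplatin library or without selumetinib 1 or 2, with adjusted p up to 0.0958, 0.0910, 0.108 and 0.130. For Edn1 and Ak4 no values with a library left out are given here. Ak4 had 12.3 to 19.8 CPM in carboplatin libraries and 55.9, 57.3 and 20.1 CPM in selumetinib 1, 2 and 3. Selumetinib over PBS called none of these genes in edgeR, with or without PBS 1. It called 0 of all 18344 genes tested with PBS 1 and 0 of 18112 without it. The smallest p there were those of P4htm (0.76), Arnt (−0.46) and Egln1 (−0.84) for oxygen sensing, Pgam1 (0.77), Pfkl (0.40) and Hk2 (−2.48) for glycolysis, and Wsb1 (0.70), Mxi1 (−0.53) and Igfbp3 (−1.15) for the further targets, with adjusted p of 0.0884 to 0.225. These values include PBS 1, which had 313 CPM of Hk2 and 407 CPM of Egln1. PBS 2 to 6 had 17.6 to 26.8 CPM of Hk2 and 129 to 151 CPM of Egln1. Without PBS 1 the log2 fold changes were −0.81 for Hk2 and −0.43 for Egln1. Each gene list was chosen with earlier results known and its counts are a description.

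Pearson correlation of log2 CPM with Hif3a over the 12 libraries was ranked for 12846 genes. These had a mean log2 CPM of at least 1 and no predicted or clone-like symbol (such as Gm or Rik names). The 10 highest were Jade2, Kirrel2, Agt, Fam107a, Fam21, Crebrf, Phactr3, Ankrd54, Mertk and Tada2b, with r of 0.957 to 0.977. None of these 10 is on the hypoxia lists or on the list of glucocorticoid-responsive genes given last. The latter list holds only 14 chosen genes, so a gene that is not on it may still respond to glucocorticoids. The correlations describe these libraries: all points share the split between 3 carboplatin libraries and the other 9, and PBS 1 is lowest for Hif3a. Among the other 9 genes of the 10 followed here r ran from −0.64 for Egln3 to 0.60 for Adm, with 0.25 for Epas1, 0.36 for Hif1a and −0.04 for Bnip3.

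Phactr3, a regulator of protein phosphatase 1 and actin, averaged 446 ± 141 CPM in carboplatin libraries, 71.5 ± 9.40 CPM in selumetinib libraries and 60.1 ± 22.8 CPM in PBS libraries (SD, n = 3, 3 and 6). Fam107a, an actin-binding stress-response gene, averaged 970 ± 90.5, 194 ± 85.3 and 127 ± 49.3 CPM in the same groups, and Agt, which encodes angiotensinogen and is made by astrocytes, averaged 969 ± 92.1, 252 ± 33.4 and 258 ± 85.5 CPM. Mertk, a receptor for the engulfment of dying cells and myelin, averaged 53.6 ± 3.42, 19.7 ± 4.52 and 19.9 ± 5.64 CPM. These genes were chosen for their likeness to Hif3a, so their levels are given without a test.

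**Figure D5:**
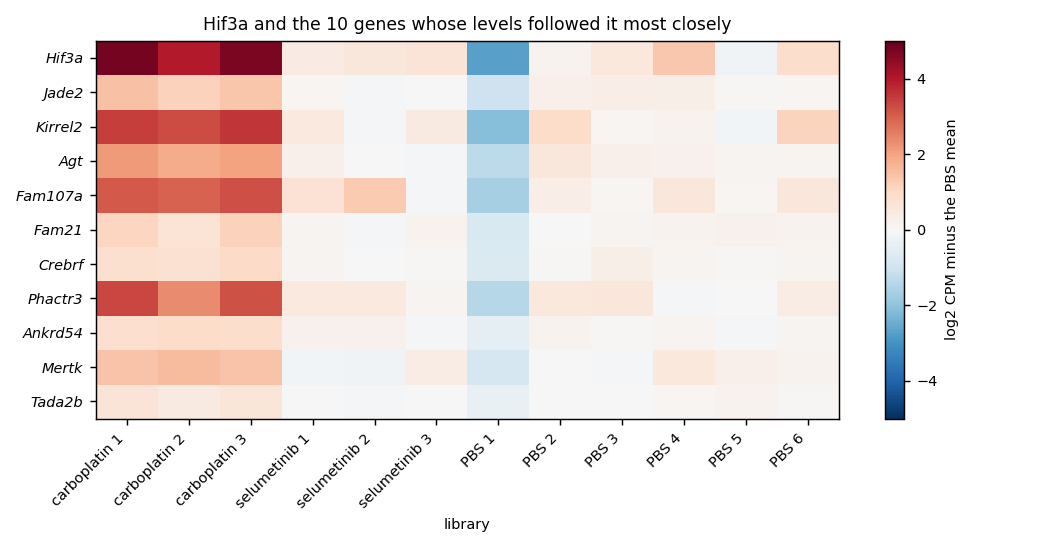
Log2 CPM minus the mean of the PBS libraries for Hif3a and 10 genes, in carboplatin, selumetinib and PBS libraries from left to right. The 10 genes are those of the 12846 ranked whose log2 CPM correlated best with Hif3a. All 11 genes are highest in the 3 carboplatin libraries and lowest in PBS 1, with correlations to Hif3a of 0.957 to 0.977.

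Genes known to respond to glucocorticoids were also higher in the carboplatin libraries. Of 14 such genes (a list that holds none of the 10 genes, nor Ddit4, and that includes genes already seen to differ in these data), 12 rose after carboplatin against PBS and none fell, against 1.57% of all genes called higher, with a median log2 fold change of 1.81 beside −0.11 over all genes. Without PBS 1 all 14 rose, with a median of 1.96, against 6.79% of all genes called higher. Their summed share was 0.430% to 0.627% of counts in carboplatin libraries, 0.0752% to 0.110% in selumetinib libraries and 0.106% to 0.166% in PBS libraries, and all 14 were detected in every group. Red blood cell markers were lower in carboplatin libraries, at 0.00125% to 0.00808% of counts, against 0.0725% to 0.161% in selumetinib and 0.0247% to 0.819% in PBS libraries, with 5 of 7 genes called lower than in PBS, and 6 of 7 without PBS 1, against 0.518% and 3.93% of all genes. The part of glucocorticoid-responsive transcription, of blood content and of retinal RNA in the Hif3a, Adm and Ddit4 values was not tested.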

How the data were processed

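The deposited data are raw counts of reads by Ensembl gene, in 1 table with a column for each of the 12 optic nerve libraries, which were grouped by the treatment label. The tools named per the submitters' processing notes are STAR, HTSeq, FastQC, Trimmomatic and DESeq2, with mm10 as build; the sources used here give no versions, strand setting or filters. Genes were kept with filterByExpr (minimum count 10, minimum total 15), given TMM factors, and tested by edgeR 4.0.16 (R 4.3.3; robust quasi-likelihood fit, 3 groups in 1 model), with a threshold of 0.05 on the Benjamini-Hochberg adjusted p. The SE is the absolute log2 fold change divided by the square root of F. Log2 CPM used a prior count of 2. The code was tested on simulated data. Coordinates and exon lengths come from GENCODE M21 (GRCm38), promoters from RefSeq. Alternatives used DESeq2 1.42.0, limma 3.58.1 voom with quality weights, other scaling, filters and controls, a term for the replicate number, and the libraries left out one by one. The 10 genes and all lists were chosen with earlier results of these data known. Beyond the 10 genes, those named had the smallest p of a list or the highest correlation with Hif3a, by rule. Arnt, Higd1a, Car12, P4ha1, Edn1, Ak4, Ldha and Pgk1 were in part named after their values were seen. The lists hold 212 genes, of which 209 matched a symbol, 2 an ID and 1 neither. Same-numbered libraries of different groups were not treated as pairs.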

Additional observations from a re-analysis of the deposited data

Results flagged for a closer look

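In 6 of the 10 genes the PBS group held a library whose gap to its nearest neighbour was above Dixon's 95% limit for a group of 6 samples, which chance passes in about 1 in 20 groups. PBS 1 was that library for 4 of them: Epas1 at 326 CPM (the next PBS library had 214), Vegfa at 173 CPM (next 44.9), Egln3 at 220.5 CPM (next 45.7) and Bnip3 at 218 CPM (next 49.3). It is the library with 6.60% of counts from skeletal muscle markers. Adm stood out in PBS 3 at 7.51 CPM (next 5.78) and Car9 in PBS 2 at 3.43 CPM (next 1.36).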

How the results depend on the processing

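Of 1622 values of single genes under the alternatives, 1334 kept direction and side of the threshold, 96 passed it only under the alternative, 158 lost it and 34 changed sign. Causes were not tested. The number of genes called in carboplatin over PBS (383) was 1574 with DESeq2, 5470 with limma voom, 7 with PBS 1 to 3 as controls, 2202 with PBS 4 to 6 as controls, 3073 without PBS 1, selumetinib 1 and selumetinib 2, and 14 without carboplatin 1 and 3; with 1 library left out it ran from 73 to 1941. Of the 10 genes (1 called), 2 were called with DESeq2, 6 with limma voom, 2 with only the 2 groups compared, 0 with PBS 1 to 3 as controls, 3 with PBS 4 to 6, 4 without PBS 1, selumetinib 1 and selumetinib 2, 0 without carboplatin 1 and 3, and 1 to 4 with 1 library left out. In selumetinib over PBS (0 genes), 2401 were called with DESeq2, 10165 with limma voom, 3 with PBS 1 to 3 as controls, and 0 to 4089 with 1 library left out, the highest without selumetinib 3; of the 10 genes 2, 7 and 0 were called with these tools and controls, and 0 to 3 with 1 library left out. In carboplatin over selumetinib (2568 genes), the counts were 4714 with DESeq2, 10788 with limma voom, 97 with PBS 1 to 3 and 5641 with PBS 4 to 6 as PBS libraries, 516 without PBS 1, selumetinib 1 and selumetinib 2, 11 without carboplatin 1 and 3, and 134 to 5974 with 1 library left out; of the 10 genes (2 called) 4, 7, 0, 5, 2 and 0 were called there, and 1 to 4 with 1 library left out. The share of calls that were higher in carboplatin over PBS was 75.2% with edgeR, 52.7% with DESeq2 and 57.3% with limma voom.

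With the replicate block, carboplatin over PBS called 5 genes, selumetinib over PBS 2 and carboplatin over selumetinib 50, and of the 10 genes 0 in each; Hif3a was 4.92 (edgeR adjusted p = 0.200) over PBS and 4.04 (0.0701) over selumetinib, and Ankrd37 turned to −0.36 in carboplatin and −0.0051 in selumetinib over PBS. The labels do not say that a number is shared by animal or batch, and same-numbered libraries correlated at −0.17 to 0.49 in their deviations from group means, so the numbers were not taken as pairs.

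Signs turned, on the log2 scale, as follows. In carboplatin over PBS, Vegfa was 0.082 with PBS 4 to 6 as controls and 0.12 without PBS 1, selumetinib 1 and selumetinib 2; with PBS 1 to 3 as controls Bnip3 was −0.21 and Ankrd37 −0.35. With 1 library left out, Vegfa ran from −0.88 to 0.13 and Ankrd37 from −0.17 to 0.26. In selumetinib over PBS with limma voom, Hif3a was −0.15, Vegfa 0.68 and Bnip3 0.42, and with PBS 4 to 6 as controls these were −0.26, 0.54 and 0.35; without PBS 1, selumetinib 1 and selumetinib 2, Vegfa was 0.23, Bnip3 0.14, Slc2a3 −0.15 and Pfkl −0.055, and Car9 was −0.12 with PBS 1 to 3 as controls. With 1 library left out, Hif3a ran from −0.092 to 0.45, Vegfa from −0.18 to 0.61, Bnip3 from −0.41 to 0.38 and Car9 from −0.033 to 1.08. In carboplatin over selumetinib, Hif1a was 0.046 and Slc2a3 0.60 without PBS 1, selumetinib 1 and selumetinib 2, Vegfa 0.065 and Ankrd37 0.025 without carboplatin 1 and 3, and Egln3 0.57 with limma voom and −0.44 to 0.44 with 1 library left out. The fits without several libraries were added after seeing the data; carboplatin 2 alone is then assumed to vary like the other groups. Counts of 3 to 82 per library limit the precision of the Car9 values.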
